A study of Homo sapiens with 4 samples.

Results

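For a human embryonic kidney line, 45182 circular RNAs (circRNAs) were listed. Of these, 132 carried a circle signal at least about 0.5 times that of the linear RNA of the same host gene. A circle was counted when its ratio of circular to linear signal (CIRCscore) was at least 0.5 in both libraries of DIS3 KD, or in both control libraries, and its own signal was at least 0.1 FPB in those same libraries. FPB stands for fragments per gigabase of mapped sequence, and FPBcirc for backsplice fragments on that scale. The 132 circles came from 115 host genes and made up 0.292% of the circles listed, and 3.63% of the 3641 that reached 0.1 FPB in both libraries of a group. DIS3 KD qualified 75 circles and control 99, with 42 qualifying in both groups, 33 through DIS3 KD alone and 57 through control alone. The circle signal at least equalled the listed linear signal, with a CIRCscore of at least 1 in both libraries of a group, for 53 of the 132. The others lay between 0.5 and that level in at least 1 qualifying library. The 53 include circles with linear signal listed at 0 in both qualifying libraries, 3 through DIS3 KD and 9 through control. The CDR1-AS circle is in both counts. For circles with such a listed 0 the ratio does not show that the circle outnumbered linear RNA. The circles were chosen by these CIRCscore and FPBcirc values of both groups, so their levels are given below as a description.

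The DIS3 KD group held 2 libraries of 1 clone, clone 8, and the control group held 2 libraries. All 4 came from Flp-In T-REx 293 cells, an embryonic kidney line with a single site for transgene insertion, and all carried an inducible Flag-HA DIS3 transgene at that site. In clone 8 the cell's own DIS3 gene had been disrupted with CRISPR/Cas9, and some DIS3 was still made without induction, hence the name knock down. The columns mark every library as grown without doxycycline, and the medium of all groups held blasticidin and hygromycin B. The RNA was total RNA depleted of rRNA, made into directional libraries. With 1 clone, an effect of the clone and an effect of less DIS3 cannot be told apart. The labels call the replicates biological without saying that they were separate cultures, so p-values measure the spread between these libraries.

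A circRNA forms when the spliceosome joins the end of a downstream exon to the start of an upstream one. The product has no free ends, is not open to the exonucleases that trim linear RNA from its ends, and usually outlives the mRNA of its gene. A few circles are known to be the main product of their gene, among them CDR1-AS, the circular antisense transcript that binds miR-7, and the circles of HIPK3 and FBXW7. DIS3 is a nuclear RNase with exonuclease and endonuclease activity and a catalytic subunit of the RNA exosome.

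Because the CDR1-AS circle is known through the microRNAs that pair with it, their mature sequences are shown, with the seed (bases 2 to 8) in capitals. The first is read from the minus strand at chr9:83969811-83969834 and binds the circle at many sites. The second, from the plus strand at chr7:151238449-151238471, is known to direct cleavage of the circle.
hsa-miR-7-5p: uGGAAGACuagugauuuuguuguu
hsa-miR-671-5p: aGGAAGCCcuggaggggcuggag
The sequences are from RefSeq on GRCh38.p14, and no RefSeq miRNA hairpin lay within the span of any of the 132 circles.

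The start regions of 2 hosts with a low linear signal are shown next, from 250 bases before to 50 bases after the RefSeq start, with each CG in capitals. CG reads the same on both strands. ZBTB46, a zinc finger transcription factor of dendritic cells, starts on the minus strand at chr20:63831215-63831514, and FIRRE, a long noncoding RNA that organises chromatin contacts of the X chromosome, at chrX:131830594-131830893 on the same strand.
ZBTB46: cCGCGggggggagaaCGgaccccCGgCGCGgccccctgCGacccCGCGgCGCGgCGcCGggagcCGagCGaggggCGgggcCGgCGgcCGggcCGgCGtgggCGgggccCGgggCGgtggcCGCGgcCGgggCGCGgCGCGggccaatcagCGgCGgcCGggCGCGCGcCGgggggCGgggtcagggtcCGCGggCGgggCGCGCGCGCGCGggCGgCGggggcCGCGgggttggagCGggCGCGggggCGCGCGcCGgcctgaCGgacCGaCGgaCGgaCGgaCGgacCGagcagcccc
FIRRE: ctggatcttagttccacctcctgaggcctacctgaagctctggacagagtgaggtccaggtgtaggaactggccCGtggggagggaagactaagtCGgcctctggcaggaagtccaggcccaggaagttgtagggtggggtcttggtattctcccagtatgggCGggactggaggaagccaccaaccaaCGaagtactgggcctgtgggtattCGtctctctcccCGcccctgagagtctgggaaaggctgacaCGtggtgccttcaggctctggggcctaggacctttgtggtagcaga
The ZBTB46 window holds 66 CG, the highest number among the hosts of the 132 circles, and the FIRRE window holds 7. These windows were available for 93 of the 115 hosts, with a median of 30 CG, against 29 over the 1664 windows for hosts of the other circles that reached 0.1 FPB. Fewer than 5 CG were found in 7.53% of the windows of these hosts, against 3.79% of those for hosts of the other circles and 4.86% of the 6485 windows of all listed hosts.

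Depth set how low a circle could be seen. DIS3 KD replicates held 352471 and 121507 backsplice reads, against 48895 and 55193 in control. The minimum of 0.1 FPB therefore meant 17 and 5 reads in DIS3 KD, against 2 and 3 in control. A total of 3 reads, the limit that a count of 0 allows, is 0.0141 FPB over both DIS3 KD libraries, against 0.0750 FPB over both control libraries; it covers counting error only. Over 2427 circles with a mean of at least 0.174 FPB, log2 FPBcirc correlated at 0.818 between the DIS3 KD libraries and at 0.366 between the control libraries. Between a DIS3 KD and a control library the correlation lay between 0.318 and 0.346. These values are a description across circles that share depth. Circles of DIS3 itself had 7 and 2 reads in DIS3 KD, against 0 and 0 in control, too few to check the knock down. Linear DIS3 RNA was at 11.7 and 15.9 FPB in DIS3 KD, above the median of 8.36 FPB over hosts of circles past 0.1 FPB there. It had no value in control, where no DIS3 circle was read. Linear DIS3 values do not tell RNA of the cell's own gene from RNA of the transgene. Of the markers of this line, linear RNA of VIM was at 354 and 401 FPB in DIS3 KD and that of CDH2 at 13.2 and 15.1 FPB. ENO2 and PAX2 had a value in DIS3 KD replicate 1 alone, at 31.0 and 4.23 FPB. The other line markers listed no circle, and no line marker had a value in control. Of the markers of other cell types, which should be absent, PECAM1 was at 0.00484 FPB in DIS3 KD replicate 1. Epithelial EPCAM was not absent, at 9.25 and 11.6 FPB in DIS3 KD, against 13.5 and 14.8 FPB in control. The others of these listed no circle and so gave no linear value. Bulk libraries do not tell fewer cells with a circle from less of it per cell.

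The linear signal is not a deposited column. It was derived on the reading that CIRCscore equals (FPBcirc + 0.01) / (linear signal + 0.01), a form inferred from the values and not given in the sources used here, and every linear value below rests on it. The form returned no negative linear signal for any circle. The linear signal derived from it was a single value per host and library for at least 99.8% of hosts with several circles. Where the linear signal is listed at 0, CIRCscore is the circle signal divided by the offset of 0.01, and its size says nothing beyond the circle's own level. This was so in at least 1 library for 19 of the 132 circles, from 13 hosts. It was so in both qualifying libraries for 3 of the 75 circles through DIS3 KD, and for 9 of the 99 through control.

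The limit of 0.5 cut through a continuous range. Just inside it in DIS3 KD, by the lower of the 2 values, lay circles of SFMBT2 (0.503), ZNF608 (0.507) and PIP4K2B (0.510), and just outside lay those of ATG2B (0.499), MGA (0.491) and RICTOR (0.484). In control, BNC2 (0.503), TMCC1 (0.505) and ATG2B (0.506) lay inside, and TNFRSF21 (0.496), FAM228B (0.483) and MIB1 (0.465) outside. ATG2B thus entered through control with CIRCscores of 0.573 and 0.499 in DIS3 KD, against 0.561 and 0.506 in control.

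The need for both replicates removed more control circles than DIS3 KD circles. In DIS3 KD replicate 1, 94 circles met both limits and 79.8% of them did so in replicate 2 as well. In DIS3 KD replicate 2, 143 did and 52.4% were shared. Control replicates 1 and 2 gave 209 and 199, of which 47.4% and 49.7% were shared. Circles with no read in the other replicate numbered 4 in replicate 1 and 8 in replicate 2 of DIS3 KD, against 74 and 58 in control. Among the circles kept, CIRCscore differed between replicates by a median of 1.22-fold in DIS3 KD and 1.37-fold in control.

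The high ratio came with both a high circle signal and a low linear signal in most of these circles. In DIS3 KD the median of the 75 circles was 1.42 FPB for the circle and 1.26 FPB for the linear host, against 0.261 and 8.70 FPB over all 2868 circles past the same minimum. In control the median of the 99 circles was 2.06 FPB for the circle and 1.76 FPB for the linear host, against 0.401 and 9.01 FPB over 2177 circles. Of the 75 in DIS3 KD, 61 had a circle signal above that of the median circle. The linear signal of 73 lay below its median over those circles, and 59 met both conditions. The other circles with a low linear signal, 14 in number, had a circle at or below the median, and 2 had a high circle signal alone. In control, 87 of 99 were above in circle signal and 96 below in linear signal, with 84 meeting both, 12 low in linear signal alone and 3 high in circle signal alone. Since the rule fixes the ratio, some mixture of these had to appear.

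Quartiles were used in the same way. In DIS3 KD, 53 circles lay above the upper quartile of circle signal and 64 had a linear host signal below the lower quartile. In control, these numbers were 80 and 76. The circle stood a median of 2.40 log2 units above the median circle in DIS3 KD, against 2.33 in control. The linear host stood 2.78 log2 units below the median linear signal over circles in DIS3 KD, against 2.35 in control. The larger of these distances was that of the circle for 37 and that of the linear host for 38 circles in DIS3 KD, against 48 and 51 in control.

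**Figure D1:**
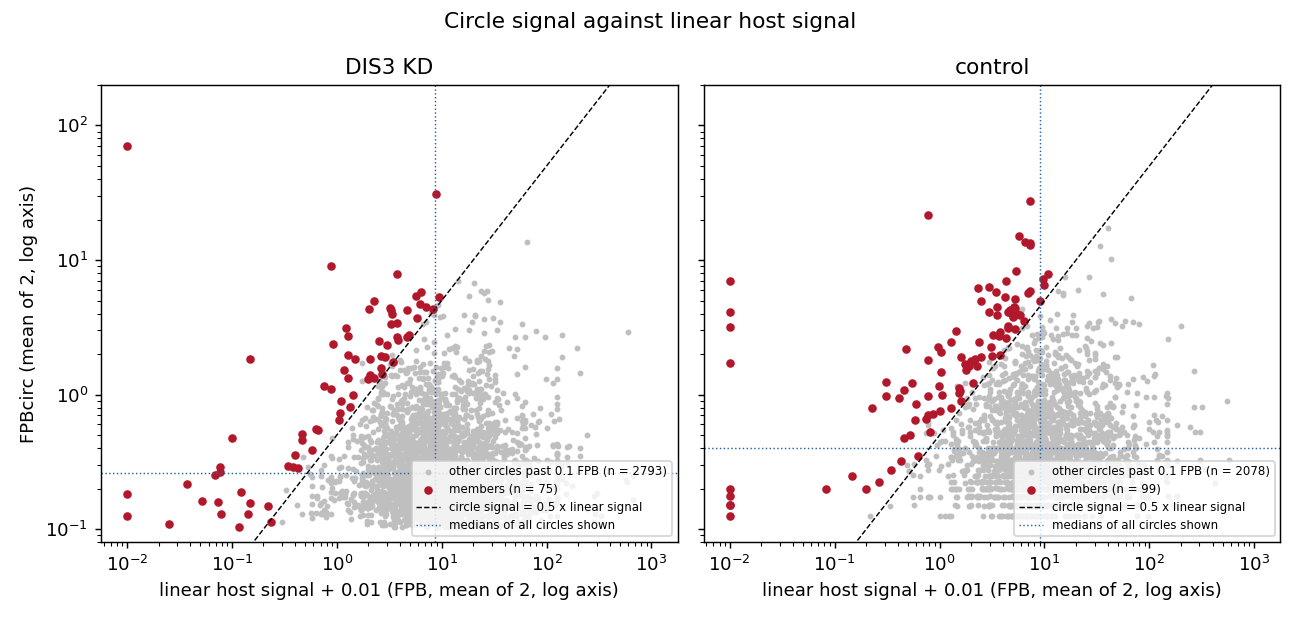
Mean FPBcirc (y axis, log scale) against mean linear host signal plus 0.01 FPB (x axis, log scale) for DIS3 KD on the left and control on the right, each point 1 circle that reached 0.1 FPB in both libraries. The 75 and 99 qualifying circles are red and the others grey, the dashed line marks a circle signal 0.5 times the linear signal, and the dotted lines mark the medians; most red points lie above and to the left of both medians.

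Among circles of long noncoding RNAs, CDR1-AS had the highest circle signal in DIS3 KD. Its circle (chrX:140783176-140784660, 1485 bases) had 63.5 and 77.6 FPB in DIS3 KD, against 5.42 and 8.56 FPB in control, from 10506 and 3719 reads in DIS3 KD, against 106 and 175 reads in control. Both DIS3 KD libraries lay above both controls. Its linear RNA was listed at 0 in all 4 libraries, so its CIRCscores of 6351 and 7763 in DIS3 KD, against 543 and 857 in control, are the circle signal over the offset. It is the only circle listed for its host, and it carries the binding sites of the microRNA shown first above.

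FIRRE gave 4 of the 132 circles, of 24 listed. Its most abundant circle (chrX:131749306-131794466, 45161 bases) had 7.62 and 10.4 FPB in DIS3 KD, against 26.2 and 17.1 FPB in control. Both DIS3 KD libraries lay below both controls. The linear signal of FIRRE was 1.18 and 0.548 FPB in DIS3 KD, against 1.55 and 0 FPB in control, and its CIRCscores were 6.42 and 18.6 in DIS3 KD, against 16.9 and 1713 in control, the last of them set by the listed 0. A second circle with the same end, from 131743096, had 0.852 and 1.34 FPB in DIS3 KD, against 1.69 and 1.96 FPB in control. A further pair of FIRRE circles qualified through control alone. The circle ending at 131749458 had CIRCscores of 0.197 and 0.878 in DIS3 KD, against 0.598 and 49.9 in control. The circle ending at 131784039 had 0.166 and 0.467 in DIS3 KD, against 0.663 and 93.9 in control. The control replicate 1 values of this pair lay just past the limit.

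The other long noncoding hosts of circles that qualified in both groups were PVT1, a gene next to MYC, and TTN-AS1, an antisense RNA of the titin gene. The PVT1 circle (chr8:127890589-127890998, 410 bases) had 4.27 and 5.22 FPB in DIS3 KD, against 4.09 and 4.84 FPB in control, and CIRCscores of 0.667 and 0.851 in DIS3 KD, against 0.988 and 1.68 in control. Its circle signals overlapped between the groups. The TTN-AS1 circle had CIRCscores of 0.847 and 2.25 in DIS3 KD, against 0.741 and 1.81 in control, and differed more between replicates than between group means.

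Some protein-coding hosts had an abundant circle. CAMSAP1, which binds the minus ends of microtubules, had the highest circle signal of the protein-coding hosts in DIS3 KD. Its circle (chr9:135881633-135883078, 1446 bases) had 31.2 and 30.9 FPB in DIS3 KD, against 15.5 and 14.7 FPB in control. The linear host was at 8.84 and 8.89 FPB in DIS3 KD, against 5.64 and 5.82 FPB in control, and the CIRCscore was 3.53 and 3.47 in DIS3 KD, against 2.74 and 2.53 in control. Circle, linear host and ratio were each higher in both DIS3 KD libraries than in both controls.

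MAN1A2, a Golgi mannosidase that trims N-glycans, gave 4 of the 132 circles, of 11 listed, and all 4 share the start at chr1:117402186. The circle to 117420649 (18464 bases) had 6.58 and 9.29 FPB in DIS3 KD, against 22.4 and 32.7 FPB in control, the highest mean circle signal of the 132 in control. That to 117414831 had 3.0 and 3.80 FPB in DIS3 KD, against 12.6 and 13.2 FPB in control. That to 117442325 had 2.15 and 3.17 FPB in DIS3 KD, against 12.3 and 14.6 FPB in control. The groups did not overlap in any of these, with DIS3 KD lower. The linear host was at 3.33 and 4.19 FPB in DIS3 KD, against 6.95 and 7.74 FPB in control, and the summed circles at 13.0 and 19.0 FPB in DIS3 KD, against 53.1 and 68.6 FPB in control. The circles together thus stood above the linear host in every library. The shortest of the 4, to 117405645, qualified through control alone with CIRCscores of 0.242 and 0.470 in DIS3 KD, against 0.722 and 0.885 in control.

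The circles of FBXW7 and HIPK3 are known from other work. FBXW7, the substrate receptor of an SCF ubiquitin ligase, had CIRCscores of 1.79 and 2.46 in DIS3 KD, against 2.2 and 2.10 in control, from 3.48 and 6.37 FPB of circle in DIS3 KD, against 6.09 and 6.60 FPB in control (chr4:152411303-152412529). HIPK3, a nuclear serine/threonine kinase, had CIRCscores of 1.27 and 1.48 in DIS3 KD, against 1.88 and 1.42 in control (chr11:33286413-33287511, 1099 bases). In both genes the ratios of the groups overlapped. CDYL, a chromodomain corepressor, had CIRCscores of 0.864 and 0.939 in DIS3 KD, against 1.54 and 1.58 in control, with both DIS3 KD libraries lower. ERC1, a scaffold of the presynaptic active zone, had the highest mean linear signal in each group among the circles that qualified in both. It stood at 8.74 and 9.94 FPB in DIS3 KD, against 10.4 and 11.2 FPB in control, so that its ratio of 0.518 and 0.622 in DIS3 KD, against 0.660 and 0.798 in control, came with a circle of 4.53 and 6.18 FPB in DIS3 KD, against 6.85 and 8.90 FPB in control.

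Others had a linear host well below 1 FPB in at least 1 group. By group mean, the circles of ZBTB46 and BCL11B also lay above the upper quartile of circle signal, 0.468 FPB in DIS3 KD and 0.749 FPB in control. The larger ZBTB46 circle (chr20:63775678-63790790, 15113 bases) had 1.96 and 1.69 FPB in DIS3 KD, against 2.25 and 2.25 FPB in control. The linear host was at 0.136 and 0.141 FPB in DIS3 KD, against 0.665 and 1.25 FPB in control, which made CIRCscores of 13.5 and 11.3 in DIS3 KD, against 3.35 and 1.80 in control. The ratio was thus higher in both DIS3 KD libraries while the circle was not. BCL11B, a zinc finger factor of T cells and neurons, showed the reverse. Its 369-base circle (chr14:99257471-99257839) had 2.16 and 1.77 FPB in DIS3 KD, against 0.665 and 0.929 FPB in control, over a linear host at 1.05 and 1.47 FPB in DIS3 KD, against 0.119 and 0.310 FPB in control. Its CIRCscores were 2.05 and 1.20 in DIS3 KD, against 5.22 and 2.94 in control, lower in DIS3 KD with a higher circle. PDE4B, a cAMP phosphodiesterase, was low in both, with 0.187 and 0.188 FPB of circle in DIS3 KD, against 0.358 and 0.196 FPB in control, and 0.0880 and 0.137 FPB of linear RNA in DIS3 KD, against 0.307 and 0.361 FPB in control.

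Channels, receptors and signalling genes followed. TRPC1, a cation channel subunit, had CIRCscores of 1.94 and 2.28 in DIS3 KD, against 0.734 and 1.26 in control. ACVR2A, a receptor of activins, had 0.731 and 1.00 in DIS3 KD, against 0.753 and 1.04 in control. NR3C2, the mineralocorticoid receptor, had 0.896 and 1.09 in DIS3 KD, against 1.07 and 0.723 in control. Of these, the TRPC1 ratio was higher in both DIS3 KD libraries, and the others overlapped. LPAR3, a receptor of lysophosphatidic acid, had its only listed circle at 0.513 and 0.547 in DIS3 KD, against 0.590 and 0.602 in control. FAT3, a giant cadherin, had 1.06 and 1.5 in DIS3 KD, against 1.66 and 2.45 in control. SLC45A4, a solute carrier, had 1.82 and 3.71 in DIS3 KD, against 3.86 and 5.51 in control, and the circle of 641 bases lay within 2.00 to 2.75 FPB in all 4 libraries. The LPAR3, FAT3 and SLC45A4 ratios were lower in both DIS3 KD libraries.

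Transcription and RNA factors made up a further share. ZNF81, a zinc finger gene of the X chromosome, had CIRCscores of 2.15 and 2.14 in DIS3 KD, against 2.16 and 3.46 in control, with a circle of 2.48 and 2.96 FPB in DIS3 KD, against 6.19 and 6.12 FPB in control. ZNF577 had 0.567 and 0.689 in DIS3 KD, against 1.98 and 2.88 in control, and ZNF148 0.748 and 0.594 in DIS3 KD, against 0.764 and 0.718 in control. The ZNF577 ratio was lower in both DIS3 KD libraries, and that of ZNF148 overlapped. NFATC3, a factor activated by calcineurin, had 1.11 and 1.22 in DIS3 KD, against 1.20 and 0.613 in control, and ELK4, an ETS factor, 0.574 and 0.563 in DIS3 KD, against 0.908 and 0.925 in control. ADARB1, which deaminates adenosine in double-stranded RNA, had 0.647 and 0.685 in DIS3 KD, against 0.746 and 1.04 in control. ZC3H12B, of the regnase family of RNases, gave a pair of circles with a common end, of 24451 and 439 bases. Its longer circle had CIRCscores of 1.07 and 0.971 in DIS3 KD, against 3.80 and 2.84 in control, and its shorter one 0.928 and 1.32 in DIS3 KD, against 7.99 and 1.69 in control. The other circles that qualified in both groups were those of ANKRD12, ATRNL1 (115120185 to 115129535), BNC2, CCDC7, FAM13B, FGD6, LRP5L, PCMTD1, PIP4K2B, QRICH2, SFMBT2 (7276892 to 7285954) and SPECC1. Their CIRCscores ran between 0.510 and 2.85 in DIS3 KD, against 0.503 and 2.46 in control, and their circle signals between 0.103 and 6.45 FPB in DIS3 KD, against 0.153 and 6.56 FPB in control. Over the 42 circles that qualified in both groups, 13 had a CIRCscore of at least 1 in all 4 libraries.

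**Figure D2:**
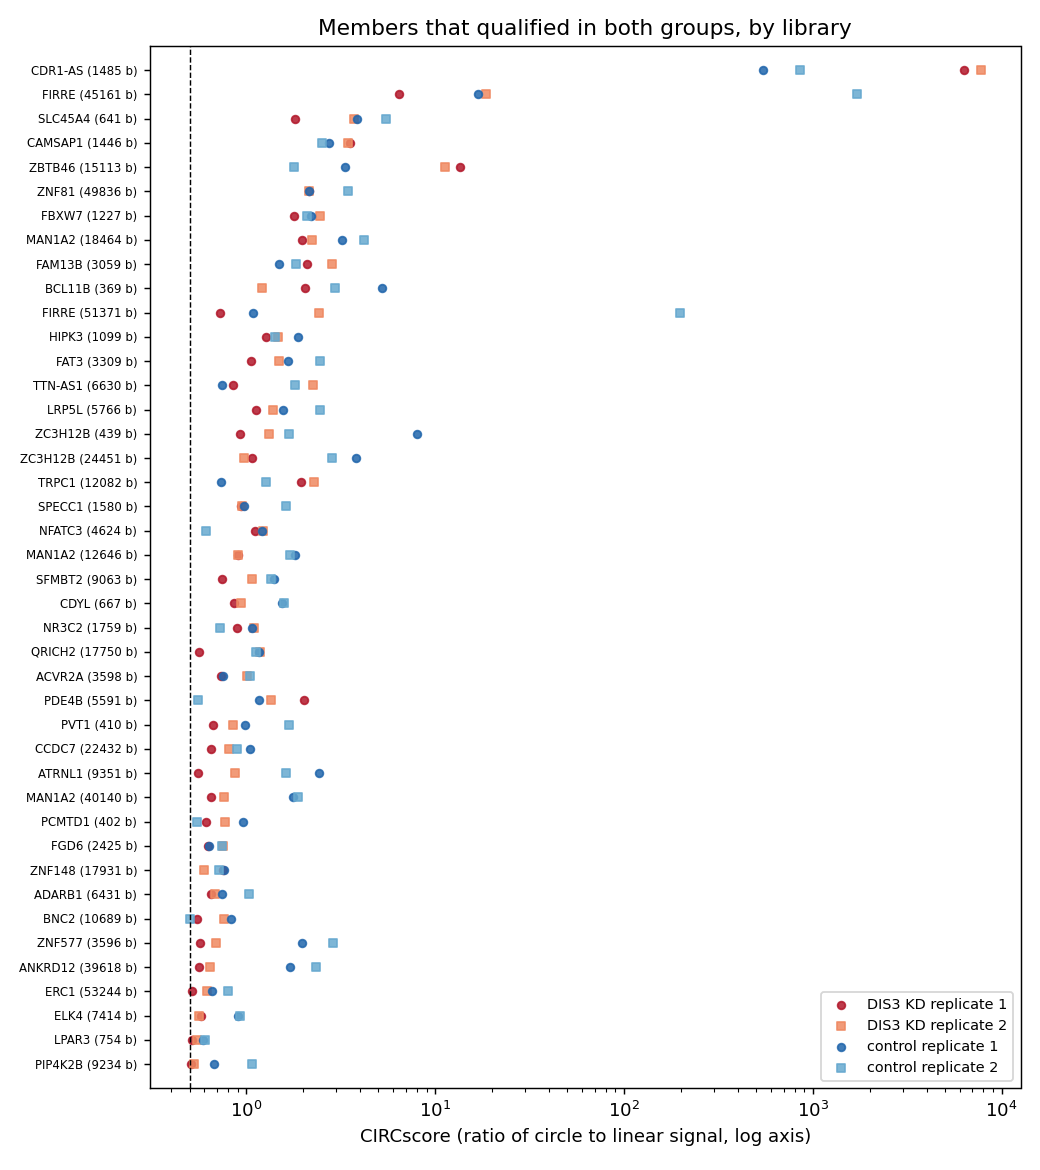
CIRCscore (x axis, log scale) of the 42 circles that qualified in both groups, 1 row a circle named by host and span in bases, with 1 point for each of the 4 libraries (DIS3 KD in reds, control in blues) and a dashed line at 0.5. Rows are ordered by the lower of the group means, with CDR1-AS at the top, and 13 rows have all points at or above 1.

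Several ratios rested on a linear signal at or near 0 in some libraries and well above it in others. Over all hosts, 118 had a linear value of 0 in a library and 25 of them exceeded 1 FPB in another; 4 of the 13 such hosts of these circles did. The examples here were chosen after their values were seen. DNAH14, an axonemal dynein heavy chain with 108 listed circles, gave 4 of the 132, all with the start chr1:224952670. Its linear signal was 3.50 and 0 FPB in DIS3 KD, against 0 and 0 in control, so that the circle to 225007544 had CIRCscores of 0.409 and 203 in DIS3 KD, against 425 and 392 in control. The circle itself had 1.43 and 2.02 FPB in DIS3 KD, against 4.24 and 3.91 FPB in control. The 108 circles of DNAH14 summed to 5.25 and 8.60 FPB in DIS3 KD, against 13.7 and 10.1 FPB in control, so the circles were seen in every library while linear RNA was listed in 1.

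BANP, a nuclear matrix binding protein, had a linear signal of 3.41 and 3.12 FPB in DIS3 KD, against 0 and 0 in control. Its circle had 3.71 and 3.01 FPB in DIS3 KD, against 0.716 and 0 FPB in control, and qualified through DIS3 KD with CIRCscores of 1.09 and 0.962. HMBOX1, a homeobox factor, went the other way, with 0.0242 and 0.0939 FPB of linear RNA in DIS3 KD, against 4.03 and 4.61 FPB in control. Its circle of 0.218 and 0.292 FPB in DIS3 KD thereby had CIRCscores of 6.66 and 2.91 there. In control the same circle had 0 and 0.440 FPB. FAM169A split the DIS3 KD libraries, with 0.320 and 5.45 FPB of linear RNA in DIS3 KD, against 5.38 and 5.03 FPB in control. No source used here says how linear reads were assigned to hosts, so a listed 0 is not read as absence of linear RNA, and ratios and linear changes built on such values carry the same limit. The cause of these zeros and steps was not tested.

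A few hosts had linear signal listed at 0 in every library where a circle was read. SPG7, a mitochondrial protease, had a circle (chr16:89544648-89548113) of 0.199 and 0.167 FPB in DIS3 KD and no read in the less deep control libraries. TMEM116, a membrane protein, had 0.103 and 0.146 FPB in DIS3 KD, against 0 and 0.147 FPB in control. PBX3, a homeobox factor, had 0.0423 and 0.25 FPB in DIS3 KD, against 0.153 and 0.147 FPB in control. The PRDX6-AS1 circle, from an antisense RNA, had no read in DIS3 KD, against 0.102 and 0.147 FPB in control. The SMAD6 circle, from an inhibitor of BMP signalling, had no read in DIS3 KD, against 0.153 and 0.147 FPB in control. The control values of these circles are 2 or 3 reads each, and their control ratios, between 11.2 and 16.3, restate them.

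**Figure D3:**
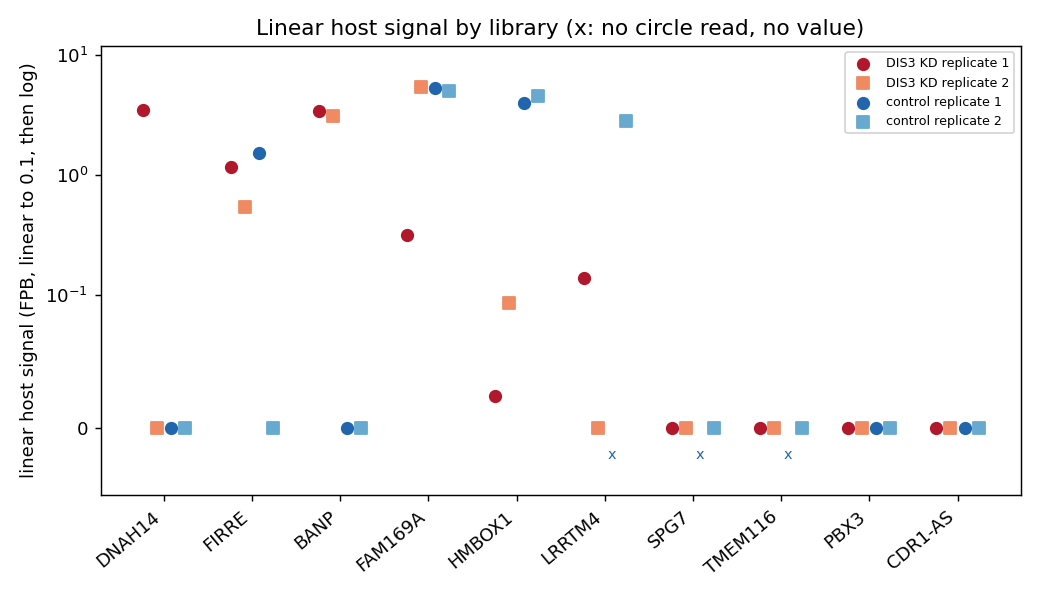
Linear host signal in FPB (y axis, linear up to 0.1 and logarithmic above) for 10 hosts chosen after their values were seen, with 1 point per library, DIS3 KD in reds and control in blues. A cross marks a library with no circle read and so no value. DNAH14, FIRRE, BANP and LRRTM4 have points both at 0 and above 1 FPB, while SPG7, TMEM116, PBX3 and CDR1-AS lie at 0.

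Of the 33 circles that qualified through DIS3 KD alone, 7 had no read in either control library and 12 had none in 1 of them. Another 5 were read in both controls with ratios under 0.5. The FPBcirc minimum failed in 1 or both controls for 22 of the 33, at a depth where it stood for 2 or 3 reads. RIMS1, a scaffold of the presynaptic active zone, had 0.187 and 0.772 FPB in DIS3 KD (chr6:72295937-72333835) and no control read. CREB5, a bZIP factor, gave a pair of circles with the start chr7:28488175, and no control read. The one to 28570537 had 0.236 and 0.292 FPB in DIS3 KD, and the one to 28507737 had 0.199 and 0.376 FPB. ALOX15P1, a transcribed pseudogene, had 0.272 and 0.313 FPB in DIS3 KD and no control read. These circles entered by their DIS3 KD values, and no fold against control is drawn from them. The linear hosts were low, at 0.0581 and 0.121 FPB for RIMS1 and 0.0302 and 0.104 FPB for CREB5 in DIS3 KD. In control replicate 2, where another CREB5 circle was read, linear CREB5 was at 2.69 FPB.

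Several other circles that qualified through DIS3 KD alone were well read there. SCMH1, a Polycomb protein, had a circle (chr1:41070595-41075451) of 4.04 and 4.61 FPB in DIS3 KD, against 1.07 and 1.32 FPB in control, over a linear host of 7.75 and 8.92 FPB in DIS3 KD, against 6.0 and 6.33 FPB in control. Its CIRCscore was 0.522 and 0.518 in DIS3 KD, against 0.180 and 0.210 in control. LMF1, a lipase maturation factor, had a 310-base circle of 2.36 and 2.34 FPB in DIS3 KD, against 0.256 and 0.783 FPB in control. MIR29B2CHG, the host of miR-29 genes, had 1.21 and 1.13 FPB in DIS3 KD, against 0 and 0.294 FPB in control. These 3 circles were higher in both DIS3 KD libraries. RSRC1, a splicing factor, had 2.93 and 4.53 FPB of circle in DIS3 KD, against 4.24 and 7.44 FPB in control, and 4.59 and 6.93 FPB of linear RNA in DIS3 KD, against 11.3 and 15.4 FPB in control. Its circle overlapped between the groups and its linear host was lower in DIS3 KD. NRIP1, a corepressor of nuclear receptors, had 0.254 and 0.313 FPB in DIS3 KD, against 0.767 and 0.538 FPB in control, with a lower linear host as well. ANKAR, an armadillo repeat gene, had CIRCscores of 3.39 and 3.28 in DIS3 KD, against 0.780 and 0.639 in control. Its circle signals were 0.139 and 0.188 FPB in DIS3 KD, against 0.102 and 0.0489 FPB in control. They rest on 23 and 9 reads in DIS3 KD, against 2 and 1 in control. Further circles that qualified through DIS3 KD alone included those of ADAMTS6, ADGRL3, APLF, ARHGAP12, C9orf129, CCDC66, CDKN2B-AS1, DLG1, GRM4, GUSBP11, SFMBT2 (7243558 to 7285954), TNFRSF21, TSNAX-DISC1, ZBTB20, ZBTB46 (63789821 to 63790790), ZNF292 and ZNF608. Their CIRCscores ran between 0.503 and 8.07 in DIS3 KD, against 0 and 6.11 in control, and their circle signals between 0.103 and 4.68 FPB in DIS3 KD, against 0 and 5.37 FPB in control.

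Of the 57 circles that qualified through control alone, 33 were read in both DIS3 KD libraries with a ratio under 0.5, 20 reached 0.5 in 1 of them, and 2 had no DIS3 KD read. RHBDD1, a rhomboid protease, had CIRCscores of 0.0414 and 0.0413 in DIS3 KD, against 1.33 and 3.64 in control. Its circle (chr2:226864604-226867318) had 0.157 and 0.167 FPB in DIS3 KD, against 0.614 and 1.27 FPB in control, and its linear RNA 4.03 and 4.28 FPB in DIS3 KD, against 0.460 and 0.342 FPB in control. SLC35E2A, a transcribed pseudogene of a solute carrier, had CIRCscores of 0.126 and 0.115 in DIS3 KD, against 2.2 and 2.33 in control, with linear RNA of 4.66 and 4.09 FPB in DIS3 KD, against 0.460 and 0.603 FPB in control. The gene listed as ENSG00000285991 had 0.0331 and 0.0637 in DIS3 KD, against 1.14 and 0.635 in control, with linear RNA of 9.62 and 9.32 FPB in DIS3 KD, against 1.66 and 1.85 FPB in control. In these 3 hosts the groups did not overlap for circle, linear RNA or ratio, and the linear difference was the larger.

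In other control circles the circle was lower in DIS3 KD and the linear host differed by less. FAT1, a giant cadherin, had 3.34 and 4.72 FPB of circle in DIS3 KD, against 10.7 and 16.6 FPB in control, over 8.42 and 8.00 FPB of linear RNA in DIS3 KD, against 6.43 and 6.66 FPB in control. ZDBF2, an imprinted gene, had 0.562 and 0.689 FPB in DIS3 KD, against 2.91 and 4.70 FPB in control. CEP192, a scaffold of centriole assembly, had 0.562 and 0.918 FPB for its longer circle in DIS3 KD, against 3.07 and 3.38 FPB in control, over 4.22 and 5.05 FPB of linear RNA in DIS3 KD, against 4.42 and 4.53 FPB in control. All 3 circles were lower in both DIS3 KD libraries. MGA, a MAX partner, had 2.95 and 3.78 FPB in DIS3 KD, against 8.23 and 6.16 FPB in control, and missed the limit in DIS3 KD by its replicate 1 alone. CREBBP, a histone acetyltransferase, had 0.266 and 0.324 as CIRCscores in DIS3 KD, against 0.651 and 0.697 in control. ZNF609, whose circle is known from myoblasts, had 0.246 and 0.252 in DIS3 KD, against 0.746 and 0.893 in control. CHSY1, a chondroitin synthase, had the highest mean linear signal in control of the circles through control alone, at 9.09 and 10.3 FPB in DIS3 KD, against 8.21 and 11.6 FPB in control. The other circles that qualified through control alone were those of ARHGAP5, ATRNL1 (115120185 to 115171292), BACH1, BOC, CCDC134, CCSER1, CDC14B, CDYL2, CEP192 (12999421 to 13019206), CLASP1, CSNK1G3, DNAH14 (224952670 to 225097239), DNAH14 (224952670 to 224968874), DNAH14 (224952670 to 224974153), EGFEM1P, ENSG00000272980, ENSG00000288542, EPHA5, FGGY, GMDS-DT, HOMER1, INTS4P2, KCNH1, LMF1 (910931 to 954666), MAP3K4, MTCL1, OMA1, RBM33, RGS12, RICTOR, SETD3, SOBP, STX18-AS1, SYNDIG1, TMCC1, ZBTB44, ZNF236 and ZNF577 (51860904 to 51880877). Their CIRCscores ran between 0.0235 and 151 in DIS3 KD, against 0.505 and 436 in control, and their circle signals between 0.0209 and 5.51 FPB in DIS3 KD, against 0.102 and 5.57 FPB in control.

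The hosts differed in kind from those of the other circles that reached 0.1 FPB. Long noncoding RNAs were 8.70% of the 115 hosts, against 1.04% of the 2013 hosts of the other circles, and pseudogenes 6.09%, against 0.695%. Protein-coding genes were 82.6%, against 96.1%. A host with circles of both kinds counts in both sets. The X chromosome held 8 of the 132 circles, or 6.06%, against 2.00% of all 3641 circles past the minimum, and FIRRE alone gave 4 of those 8. These shares follow a rule that selects low linear signal, and no test was made of them.

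By gene list, read against the 3.63% over all circles past the minimum, hosts matched by a name pattern for noncoding and open reading frame loci gave 13 of 43 circles, or 30.2%. The pattern took in C9orf129, annotated as a pseudogene, and missed the long noncoding TSNAX-DISC1 and the hosts listed by an Ensembl identifier alone. Besides the genes above, they included CDKN2B-AS1, the antisense RNA of a cell cycle inhibitor locus, and GMDS-DT. Hosts of much studied circles gave 21 of 96, or 21.9%, a list that was drawn up for the circles of such genes. Zinc finger transcription factors gave 12 of 101, or 11.9%, adhesion and matrix genes 3 of 26, or 11.5%, and synaptic genes 4 of 38, or 10.5%. Kinases and signalling genes gave 4 of 104, or 3.85%, chromatin regulators 5 of 146, or 3.42%, and mitochondrial metabolism 1 of 47, or 2.13%. LRRTM4, a synaptic adhesion protein, qualified through DIS3 KD with a linear signal of 0.139 and 0 FPB there, against 2.81 FPB in control replicate 2.

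The circles were somewhat shorter than others by the median, though not among the longest. Their genomic span had a median of 6092 bases, against 8551 for the others, with 16.7% under 1000 bases, against 10.8%. The upper quartile was 19820 bases, against 19271, and 1.52% spanned over 100000 bases, against 1.17%. The shortest was the 256-base circle of ZNF608 (chr5:124701014-124701269), a zinc finger gene, and the longest that of ADGRL3 (chr4:61383124-61587440), an adhesion receptor of the latrophilin family, at 204317 bases. Spans are genomic and include any introns removed from the circle. For the 107 circles within a host of known start, a median of 26.0% of the host gene lay before the circle, against 39.6% for the others, and 10.3% began in the first 5% of the gene, against 3.04%. By class this median was 28.7% for circles of both groups, 39.0% for DIS3 KD alone and 19.4% for control alone. In bases the circles began a median of 36177 from the host start, against 34768 for the others. Counted once for each circle, the host gene had a median length of 139119 bases, against 103980.

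Most of these circles also took a large share of the backsplicing of their hosts. The median share of a host's summed FPBcirc that the circle took was 80.2% in DIS3 KD, against 36.5% for the others there. In control it was 85.2%, against 40.9% for the others. Counted once for each circle, the host had a median of 7 listed circles, against 12, and 12.1% of the circles were the only one of their host, against 2.91%. An end was shared with another listed circle for 79.5%, against 92.7%. A high share of the host's backsplicing was not part of the rule, although it goes with circle signal. The summed circles of a host reached its linear signal in both libraries for 65 of 4356 hosts in DIS3 KD, against 54 of 1877 in control.

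**Figure D4:**
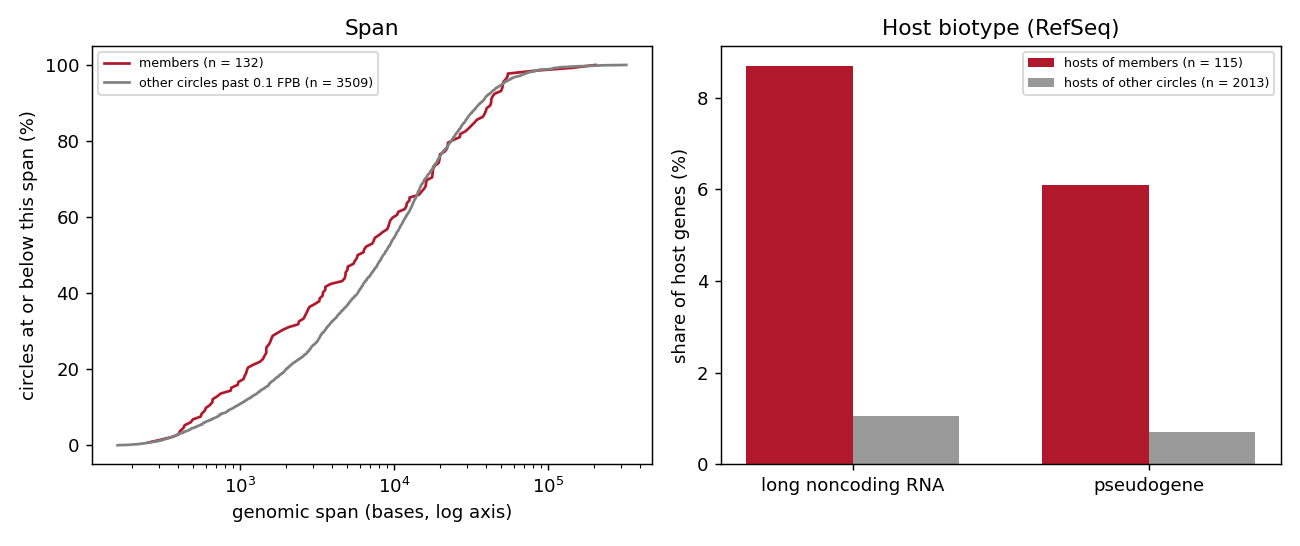
Left, cumulative share of circles (y axis, %) by genomic span in bases (x axis, log scale) for the 132 circles in red and the 3509 others past 0.1 FPB in grey. Right, share of host genes (y axis, %) that are long noncoding RNAs or pseudogenes. The 115 hosts are in red, at 8.70% and 6.09%, and the 2013 hosts of the other circles in grey, at 1.04% and 0.695%.

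DIS3 KD and control were also set against each other with limma over all circles and hosts tested. The CIRCscore and FPBcirc of both groups chose these circles, and linear signal was derived from the same values, so folds are given as a description with no p, and the counts of calls beside the share over all features, with nothing read from them.

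Of the 113 circles tested for FPBcirc, limma called 1 higher in DIS3 KD and 3 lower, beside 0.0824% and 0.453% of all 2427 circles tested. The median log2 fold change was -0.54 for these circles and -0.33 for all. Both DIS3 KD libraries lay above both controls for 19 of the 113 and below them for 64, beside 16.2% and 38.4% of all tested. At an unadjusted limma p of 0.05, 9 were higher and 42 lower, beside 5.11% and 14% of all. The called circle on the higher side was CDR1-AS, with 70.6 ± 9.99 FPB in DIS3 KD, against 6.99 ± 2.22 FPB in control (mean ± SD of 2 libraries each; a log2 change of 3.36). Those on the lower side were a pair from MAN1A2 and that of ZDBF2. The MAN1A2 circle to 117442325 had 2.66 ± 0.722 FPB in DIS3 KD, against 13.5 ± 1.63 FPB in control (mean ± SD of 2 libraries each; a log2 change of -2.35). That to 117414831 had 3.40 ± 0.562 FPB in DIS3 KD, against 12.9 ± 0.374 FPB in control (mean ± SD of 2 libraries each; a log2 change of -1.92). ZDBF2 had 0.625 ± 0.0896 FPB in DIS3 KD, against 3.81 ± 1.26 FPB in control (mean ± SD of 2 libraries each; a log2 change of -2.51). With 1 library left out, the log2 change of CDR1-AS lay between 3.03 and 3.69 and that of ZDBF2 between -2.85 and -2.17. No circle was called without DIS3 KD replicate 1 or without DIS3 KD replicate 2, in fits whose spread comes from the 2 libraries of control and which assume that the lone DIS3 KD library varies alike. Leaving out control replicate 1, limma gave 321 circles higher with 440 lower of all tested, and leaving out control replicate 2 it gave 350 with 337, with the spread of the DIS3 KD libraries alone. Library median centring moved the median over all circles to 0.17 and left 1 call higher and 0 lower of all tested, beside 2 and 11 as deposited. On recovered reads edgeR, with a median of 0.10, called 1 higher and 0 lower, and DESeq2 called 173 higher and 65 lower.

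Of the 103 circles tested for CIRCscore, limma called 0 higher and 2 lower, beside 0% and 0.110% of 1823, and at an unadjusted p of 0.05 it gave 4 and 34, beside 2.96% and 17.9%. The median log2 fold change was -0.79 for these circles and -0.42 for all. Both DIS3 KD libraries lay above both controls for 12 of the 103 and below them for 66, beside 11.6% and 42.6% of all tested. Among the 41 tested that qualified in both groups, the counts were 6 above and 22 below. The called circles were those of SLC35E2A and RHBDD1, both of which entered through control alone. SLC35E2A had CIRCscores of 0.120 ± 0.00840 in DIS3 KD, against 2.26 ± 0.0941 in control (mean ± SD of 2 libraries each; a log2 change of -4.18). RHBDD1 had 0.0413 ± 8.24e-05 in DIS3 KD, against 2.48 ± 1.63 in control (mean ± SD of 2 libraries each; a log2 change of -5.59). With library median centring, limma called neither. Over all circles, limma called 218 lower without control replicate 1, 228 without control replicate 2, 7 without DIS3 KD replicate 1 and 21 without DIS3 KD replicate 2.

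Linear RNA was tested for 101 of the 115 hosts, and limma called 25 higher and 16 lower in DIS3 KD, beside 11.3% and 24.3% of 2547 hosts. Both DIS3 KD libraries lay above both controls for 43 of the 101 and below them for 33, beside 25.6% and 45.1%. At an unadjusted limma p of 0.05 the numbers were 26 and 20, beside 14.3% and 30.1%. Over all hosts the calls were 287 higher and 619 lower as deposited, and 552 higher and 583 lower with library median centring. Among the hosts called higher, the log2 change was 1.93 for BANP, measured against a listed 0 in both controls, 1.86 for ENSG00000285991, 1.77 for RHBDD1 and 1.71 for SLC35E2A. Their order moved with the 1.16 FPB added before taking logs: with 2 times that amount ENSG00000285991 stood at 1.53 and BANP at 1.27. Among the hosts called lower, the log2 change was -2.16 for HMBOX1, -1.07 for RSRC1, -1.01 for HOMER1, a postsynaptic scaffold, -0.95 for FAM13B, -0.87 for ACVR2A and -0.79 for MAN1A2. The call of MAN1A2 was lost without either control library, and those of RSRC1 and HOMER1 without control replicate 2. Over all hosts, leaving out control replicate 1 gave 76 limma calls up with 244 down, leaving out control replicate 2 gave 123 with 179, and leaving out DIS3 KD replicate 1 gave 276 with 369. The added 1.16 FPB understates the change of hosts near 0.

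**Figure D5:**
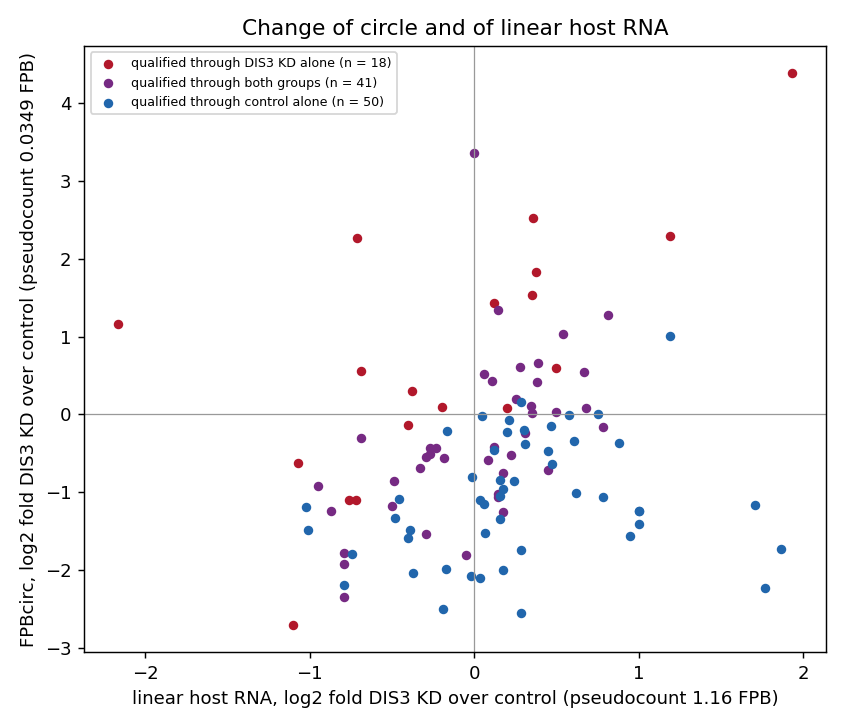
Log2 fold change of FPBcirc, DIS3 KD over control (y axis, with 0.0349 FPB added), against that of linear host RNA (x axis, with 1.16 FPB added) for circles tested in both, 1 point a circle, red for those that qualified through DIS3 KD alone, purple for both groups and blue for control alone. CDR1-AS stands at a circle change of 3.36 with its linear RNA listed at 0 throughout, BANP at the upper right, and RHBDD1, SLC35E2A and ENSG00000285991 at the lower right.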

How the data were processed

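Circular RNA was measured in 2 DIS3 KD and 2 control libraries of Flp-In T-REx 293 cells. The submitters' processing notes name hg38, Bowtie2 2.3.5 and bcl2fastq 2.20; the tool that called circles is not given in the sources used. As the column names and values show, the deposited FPBcirc is a signal scaled to depth (backsplice fragments for each gigabase mapped), and the deposited CIRCscore is the ratio of circular to linear signal of the host. The authors' deposited fold change, a ratio of group means, was not used for results. Linear signal was derived as (FPBcirc + 0.01) / CIRCscore minus 0.01, a form inferred from the values, and exists only where the circle was read. The hg38 positions given here are counted from 1, after 1 was added to each deposited start, and 7 emptied lines were left out. No genome was used here, so circle sequences and exons are not given. Host biotypes, starts, miRNAs and start regions are from RefSeq on GRCh38.p14.

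In each library 100% of FPBcirc values above 0 were whole multiples of the smallest one, within 0.001 of a read, which gave reads and depth: 165 and 47.9 mapped gigabases in DIS3 KD, against 19.6 and 20.4 in control. The value of 1 read was 0.00604 and 0.0209 FPB in DIS3 KD, against 0.0511 and 0.0489 FPB in control.

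DIS3 KD was set against control on log2(value + pseudocount) with limma 3.58.1 (R 4.3.3), with trend and robust moderation, two-sided, at a Benjamini-Hochberg adjusted p of 0.05. FPBcirc used a pseudocount of 0.0349 FPB, the median value of 1 read, for circles with a mean of at least 0.174 FPB. CIRCscore used 0.00448, for those read in all 4 libraries, and linear RNA 1.16 FPB, once per host; both are percentile 5 of the values. Alternatives were a replicate block, leave-one-out fits, changed pseudocounts, filters and limits, library median centring, and count models on the recovered reads of the circles tested (edgeR 4.0.16; DESeq2 1.42.0). The files and figures were handled with Python 3.11.15, pandas 2.3.3 and matplotlib 3.10.9.

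The circles and gene lists were chosen with earlier results of these data known. Circles named in the text have the highest ratios, circle signals or lowest and highest linear signals, lie next to the limit, passed a fit, share a host, lead a gene list or have an extreme span; others were named, after their values were seen, to describe their group. One circle that met the rule is counted but not reported by name here.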

Additional observations from a re-analysis of the deposited data

How the results depend on the processing

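The number of circles by the rule was 261 at a CIRCscore of at least 0.25 and 53 at a CIRCscore of at least 1, and 148 to 232 when 1 library was left out and its partner alone had to pass, beside 132. It was 150 and 109 with minima of 0.05 and 0.2 FPB, and 123 and 109 with at least 5 and 10 reads. Without control replicate 1 or 2 it was 225 or 232. Counts of circles with a signal above, or a linear host signal below, that of other circles kept within 1.5 times under the quartiles and with hosts counted once.

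Replicate numbers did not pair the libraries: deviations of libraries with the same number correlated at 0.00289 for FPBcirc, 0.0271 for CIRCscore and 0.0652 for linear RNA. With the replicate block limma called 36 higher and 98 lower for FPBcirc, 1 and 8 for CIRCscore, and 390 and 820 for linear hosts, beside 2 and 11, 0 and 2, and 287 and 619.

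For FPBcirc, a pseudocount divided by 2 gave 1 higher and 0 lower, 2 times the pseudocount 7 and 13, library median centring 1 and 0, no filter 48 and 61, a filter at 2 times the minimum 31 and 160, edgeR 1 and 0, and DESeq2 173 and 65. Leaving out each library gave 0 to 350 higher and 0 to 440 lower; without DIS3 KD replicate 1, an unadjusted p of 0.05 was passed by 20 and 147. For CIRCscore, 2 times the pseudocount gave 1 lower, library median centring 0 lower (166 and 127 past an unadjusted p of 0.05), and leaving out each library 1 to 57 higher and 7 to 228 lower. For linear hosts, centring gave 552 higher and 583 lower, and leaving out each library 76 to 302 higher and 179 to 916 lower. No named value changed sign. The cause of these moves was not tested. Control libraries held the fewest reads, so a circle under 2 or 3 reads there could not meet the minimum, and a linear value is missing where no circle was read.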
